A study of Mus musculus with 12 samples.

Results

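Genes for potassium channels were followed in mouse brain RNA-seq, first across traumatic brain injury (TBI) and then across zileuton given after TBI. A gene was a member when its mouse symbol begins with Kcn. The glial inward rectifier Kcnj10 and the antisense symbols were set aside, which left 93 genes. Of these, 92 were listed among the 35697 identifiers of the sham and TBI data and all 93 among the 55637 identifiers of the zileuton data. A member was tested when it had 10 or more counts in 3 or more libraries of its data set, a limit that 85 of 92 and 81 of 93 members passed. The 7 members below that limit in the sham and TBI data were Kcna7, Kcna10, Kcnk7, Kcnk16, Kcnk18, Kcnmb3 and Kcnv2.

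All mice were labelled wild-type adult male C57BL/6J, and the groups held 3 mice each. The sham mice went through surgery without an impact, and the TBI mice received a controlled cortical impact (CCI), a piston blow to the exposed cortex. Pericontusional tissue, the brain next to the lesion, was taken at 7 days. These 6 libraries carry a batch date of 2018. In a batch dated 2022, TBI mice were compared with TBI mice that received zileuton, an inhibitor of 5-lipoxygenase, by daily intraperitoneal injection of 10 mg per kg in corn oil. The labels of the 2022 control name only TBI, whereas the results and figure legends of the study speak of a vehicle. The source labels of the 3 zileuton mice give 7, 8 and 9 days, while their library names give 7 days for each. The batch date and the comparison made within it cannot be told apart, and no level was tested between batches. The columns of 2022 carry the numbers 2, 3 and 6, which could not be tied to single labels, and are called replicates 2, 3 and 6.

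Potassium channels let potassium leave or, in the case of inward rectifiers, enter cells and thereby set the resting potential, end the action potential and limit repetitive firing. Voltage-gated (Kv) channels are tetramers whose pore-forming subunits join modulatory subunits and cytoplasmic or membrane partners. Tandem-pore leak channels and inward rectifiers hold the membrane near rest, calcium- and sodium-activated channels answer ion entry, and microglia, astrocytes and cells of the vessel wall carry channels of their own beside those of neurons.

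Libraries held 42929862 to 48684674 counts in 2018 and 27845562 to 35453257 in 2022. Gfap, a marker of reactive astrocytes, rose from 142 to 220 CPM (counts scaled to 1e+06 per library) in sham mice to 2230 to 2600 CPM in TBI mice, and Snap25, a defining gene of neurons, fell from 2600 to 2930 CPM in sham mice to 1480 to 2000 CPM in TBI mice (log2 fold change -0.65, adjusted p = 0.00386 in edgeR). Some values went against the labels. Xist, which male cells do not normally express, had 856 to 1155 counts in every library of 2018 and 1 to 6 counts in those of 2022, and the Y-linked gene Ddx3y was present in all. Counts of the embryonic globin gene Hbb-y were 70, 183 and 138 in the sham group against 2, 6 and 0 in the TBI group, although the mice were labelled adult. The part of either in the results below was not tested.

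The promoters of 4 members that changed after TBI are shown, namely the microglial leak channel Kcnk13, the calcium-activated channel Kcnn4, the sodium-activated channel Kcnt2 and the ERG-type channel Kcnh7. They were chosen by the lowest adjusted p in edgeR in each direction, among members whose groups did not overlap. A single RefSeq start and no annotated exon in the bases shown were also required. Among the rises, Kcne1l and Kcnk6 had lower adjusted p but did not meet these limits. The same held among the falls for Kcnv1, Kcnip4, Kcnma1 and Kcnj3, ahead of Kcnt2, and for Kcnc2 and Kcnh3, ahead of Kcnh7. Each run holds the 250 bases before a RefSeq transcription start on GRCm38.p6, read 5′ to 3′ on the strand of the gene, and capitals mark a GC box (GGGCGG or CCGCCC) or a PU.1 core (GAGGAA or TTCCTC), the motif of a myeloid factor.
Kcnk13, chr12:99964249-99964498, plus strand: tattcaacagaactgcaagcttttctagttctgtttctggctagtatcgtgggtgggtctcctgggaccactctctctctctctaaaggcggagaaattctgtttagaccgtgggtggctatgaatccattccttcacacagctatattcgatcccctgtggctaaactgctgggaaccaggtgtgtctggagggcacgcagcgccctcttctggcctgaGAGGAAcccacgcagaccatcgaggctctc
Kcnn4, chr7:24370013-24370262, plus strand: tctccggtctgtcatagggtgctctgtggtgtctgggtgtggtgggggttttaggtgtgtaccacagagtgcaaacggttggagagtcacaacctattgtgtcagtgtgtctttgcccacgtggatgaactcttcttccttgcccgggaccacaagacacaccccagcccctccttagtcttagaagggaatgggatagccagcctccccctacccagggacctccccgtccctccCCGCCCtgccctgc
Kcnt2, chr1:140245468-140245717, plus strand: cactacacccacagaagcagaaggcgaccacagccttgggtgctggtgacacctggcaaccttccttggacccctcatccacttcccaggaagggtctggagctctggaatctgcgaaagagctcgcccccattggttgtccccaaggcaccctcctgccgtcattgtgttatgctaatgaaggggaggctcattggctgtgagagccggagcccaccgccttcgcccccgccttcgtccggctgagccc
Kcnh7, chr2:63184288-63184537, minus strand: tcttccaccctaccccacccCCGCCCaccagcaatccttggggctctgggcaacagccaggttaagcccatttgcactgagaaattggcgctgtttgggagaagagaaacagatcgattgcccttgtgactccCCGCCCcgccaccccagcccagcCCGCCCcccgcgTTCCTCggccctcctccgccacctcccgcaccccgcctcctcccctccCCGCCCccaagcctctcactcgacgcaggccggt
The Kcnk13 run held 1 PU.1 core and no GC box, the Kcnn4 run 1 GC box, the Kcnt2 run neither, and the Kcnh7 run 4 GC boxes and 1 PU.1 core. Their GC content was 52.8%, 58.8%, 61.6% and 67.6%, beside a median of 52.4% over 32817 promoters.

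The abundance of the members was compared per length, in FPKM (fragments scaled to gene length and library size), over the 6 libraries of 2018. Kcnab2, a cytoplasmic beta subunit of Kv channels, had the highest level (67.1 ± 3.65 FPKM in sham and 59.6 ± 13.6 in TBI mice, SD, n = 3 each). The strong inward rectifier Kcnj4 followed with 66.7 ± 10.1 FPKM in sham and 45.8 ± 9.27 in TBI mice, and the leak channel Kcnk1 with 45.1 ± 0.785 and 45.4 ± 2.69. The spread of Kcnab2 overlapped that of Kcnj4 in sham mice, so their order is not set by these libraries. Among the high members of other classes were the silent subunit Kcnf1 (39.0 ± 2.69 FPKM in sham mice), the axonal Kv channel Kcna2 (27.9 ± 0.226), the ELK-type channel Kcnh3 (25.5 ± 2.79) and the large-conductance channel Kcnma1 (17.7 ± 1.61).

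**Figure D1:**
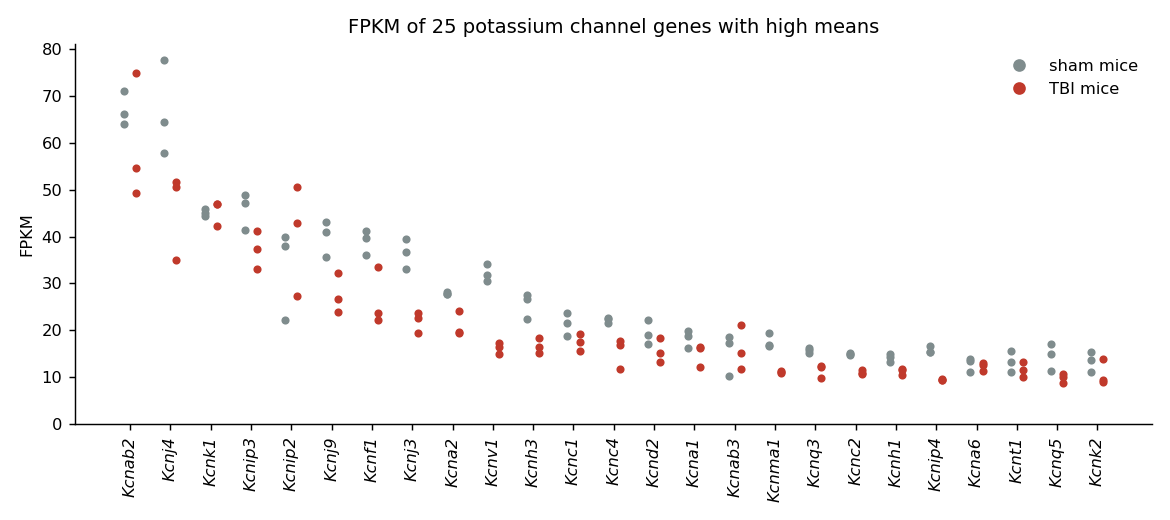
FPKM (vertical axis, linear from 0) of the 25 members with the highest mean over the 6 libraries of 2018 among those reported here, with 1 point per mouse, sham in grey and TBI in red. The TBI points of Kcnv1, Kcnj3, Kcnma1 and Kcnip4 lie below all their sham points, while those of Kcnk1 and Kcnip2 overlap.

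To find out how channel expression differed after TBI, sham and TBI mice were compared with edgeR's quasi-likelihood test, with p-values adjusted over all 19709 genes tested by the Benjamini-Hochberg method. More members were lower than higher: 34 of 85 members fell (40.0%), 6 rose (7.06%) and 45 were not called. Over all genes tested, 28.5% were called, 12.2% lower and 16.3% higher, and the median log2 fold change was 0.00 against -0.33 for the members. At an unadjusted p under 0.05 there were 49 members (57.6%) beside 39.8% of all genes. The values of sham and TBI mice did not overlap for 48 members (56.5%), 39 with TBI below and 9 with TBI above, whereas 44.5% of all genes were so separated, 20.8% with TBI below and 23.7% with TBI above. In bulk tissue, fewer cells of a type and less RNA per cell cannot be told apart.

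The markers of cell types moved as well. Of 14 neuronal markers 7 fell and none rose, with a median log2 fold change of -0.27, and their summed level was 10800 to 11600 CPM in sham mice and 7370 to 8990 CPM in TBI mice. All 8 markers of activated microglia and macrophages rose (44.4 to 52.5 CPM in sum in sham mice, 604 to 912 CPM in TBI mice), as did all 6 of homeostatic microglia (198 to 230 CPM, then 513 to 651 CPM) and 5 of 6 of astrocytes (3720 to 4130 CPM, then 7170 to 7560 CPM). No marker of these lists was at 0 in every library. Their part in the changes of the channel genes was not tested.

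**Figure D2:**
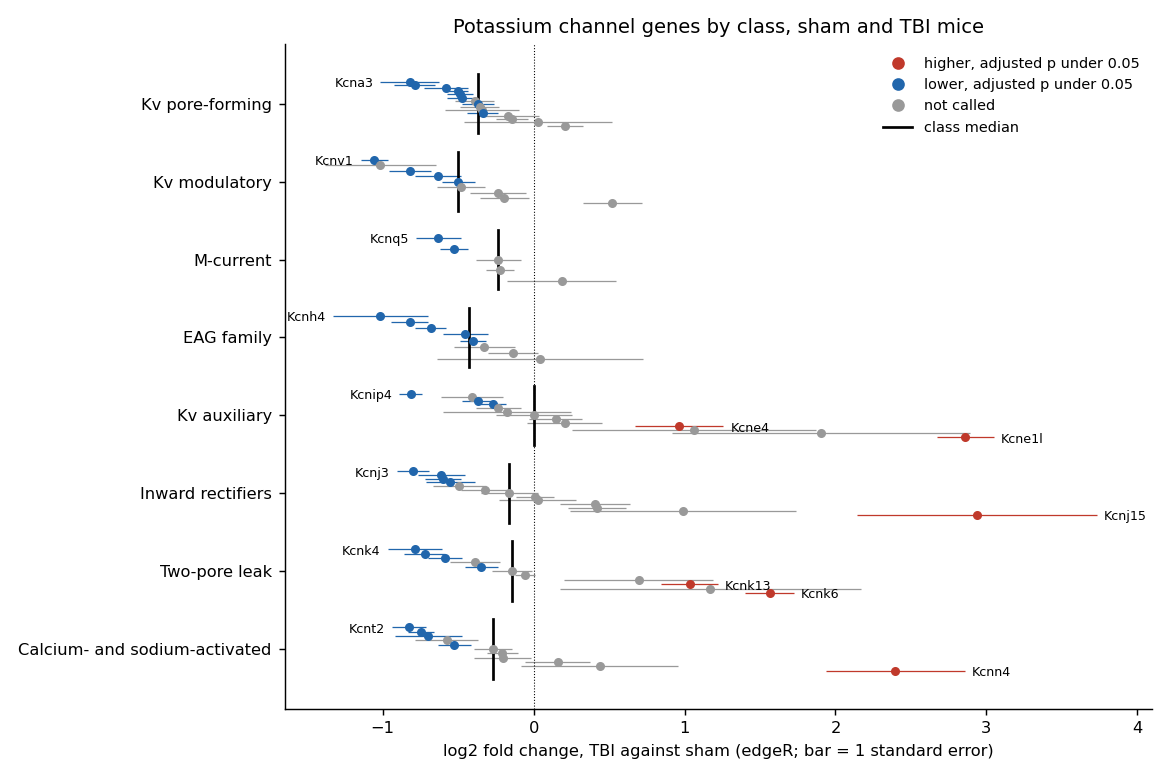
Log2 fold change, TBI against sham, of the 85 members tested (horizontal axis, points with 1 standard error), in rows by channel class, with black bars at the class medians. Blue points (34) are lower and red points (6) higher at an adjusted p under 0.05 in edgeR; the red points sit in the auxiliary, inward rectifier, leak and calcium-activated classes.

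The pore-forming Kv subunits (Kcna, Kcnb, Kcnc and Kcnd) carry the delayed and transient outward currents that repolarise neurons. Of 15 tested, 8 fell and none rose, with a median log2 fold change of -0.37 and a range from -0.82 to 0.21. Kcnb2, a delayed rectifier of neurons, was at 40.7, 34.8 and 34.9 CPM in sham mice and at 25.9, 18.4 and 19.6 CPM in TBI mice. Every TBI mouse lay below every sham mouse (log2 fold change -0.79, SE 0.137, adjusted p = 0.00315).

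Kcna2, a channel of axons near the node of Ranvier, was at 344, 339 and 336 CPM in sham mice and at 281, 226 and 226 CPM in TBI mice. The groups did not overlap, and the fall was 1.39-fold (log2 fold change -0.48, SE 0.0967, adjusted p = 0.00674). Its axonal partner Kcna1 was at 98.3, 78.6 and 91.2 CPM, then at 77.7, 74.5 and 57.1 CPM, and did not pass the test (-0.36, SE 0.128, adjusted p = 0.0675). Kcna3, known from T cells and microglia as well as from neurons, was at 14.1, 11.0 and 10.5 CPM in sham mice and at 5.57, 6.14 and 8.5 CPM in TBI mice. Kcna3 thus fell (-0.82, SE 0.193, adjusted p = 0.0132), while the microglial marker lists rose. Without sham mouse 1 its adjusted p was 0.0547. The lowly expressed Kcna5 and Kcna4 and the more abundant Kcna6 had overlapping groups, and 39.6% of the exonic bases of Kcna6 overlap an antisense gene.

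The Kcnc genes encode the fast delayed rectifiers of rapidly firing neurons such as parvalbumin interneurons. Kcnc2 was at 111, 106 and 111 CPM in sham mice and at 81.4, 73.6 and 76.2 CPM in TBI mice. All TBI values lay below all sham values, and the spread within each group was small (-0.50, SE 0.0692, adjusted p = 0.000921). Kcnc4 (-0.58, SE 0.144, adjusted p = 0.0162) and Kcnc1 (-0.37, SE 0.104, adjusted p = 0.0289) also fell. Kcnc1 lost its call in 6 of the 11 alternatives that kept every mouse. The 3 genes listed for parvalbumin interneurons had fold changes below 0 and none was called. In the TBI mice Pvalb was at 93.4, 69.1 and 55.1 CPM and Syt2 at 60.9, 46.6 and 35.1 CPM. Tac1, the remaining gene of that list, was at 16.1, 74.3 and 27.8 CPM and did not follow their order.

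The Kcnd genes encode the transient A-type channels of dendrites. Kcnd3 fell (-0.34, SE 0.104, adjusted p = 0.0391) although its groups overlapped, at 57.5 CPM in the lowest sham mouse and 57.6 CPM in the highest TBI mouse. Its call was lost in 7 of the 11 alternatives that kept every mouse. Kcnd2 was at 102, 89.2 and 117 CPM in sham mice and at 77.0, 90.9 and 66.8 CPM in TBI mice (-0.39, adjusted p = 0.0521), on either side of the threshold according to the setting. Kcnd1 had TBI values above sham values (11.8, 9.91 and 11.9 CPM, then 12.8, 13.2 and 13 CPM) without passing the test (0.21, adjusted p = 0.224).

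The modulatory subunits (Kcnf, Kcng, Kcns and Kcnv) form no channel alone and change the gating of Kcnb channels. Of 9 tested, 4 fell and none rose, with a median of -0.50, the lowest of the classes. The deepest fall among all members whose groups were separate belonged to Kcnv1, at 163, 142 and 148 CPM in sham mice and 77.8, 66.0 and 74.2 CPM in TBI mice. The highest TBI mouse stayed far below the lowest sham mouse, a 2.08-fold fall (-1.05, SE 0.088, adjusted p = 5.84e-05). Kcng1 was at 31.7, 30.0 and 32.4 CPM, then at 13.9, 18.8 and 20.6 CPM (-0.82, SE 0.14, adjusted p = 0.00286). Kcnf1 was at 206, 193 and 176 CPM, then at 104, 109 and 158 CPM, so that TBI mouse 3 came near the sham mice (-0.63, SE 0.151, adjusted p = 0.0138). Without sham mouse 1 the adjusted p of Kcnf1 was 0.0539. Kcns1 completed the falls (-0.50, adjusted p = 0.0107). Kcng3 had a value of -1.02 with an SE of 0.368 at 0.81 to 2.87 CPM and did not pass the test (adjusted p = 0.0696), and Kcng4 alone of the class had a fold change above 0 (0.52, adjusted p = 0.0769).

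**Figure D3:**
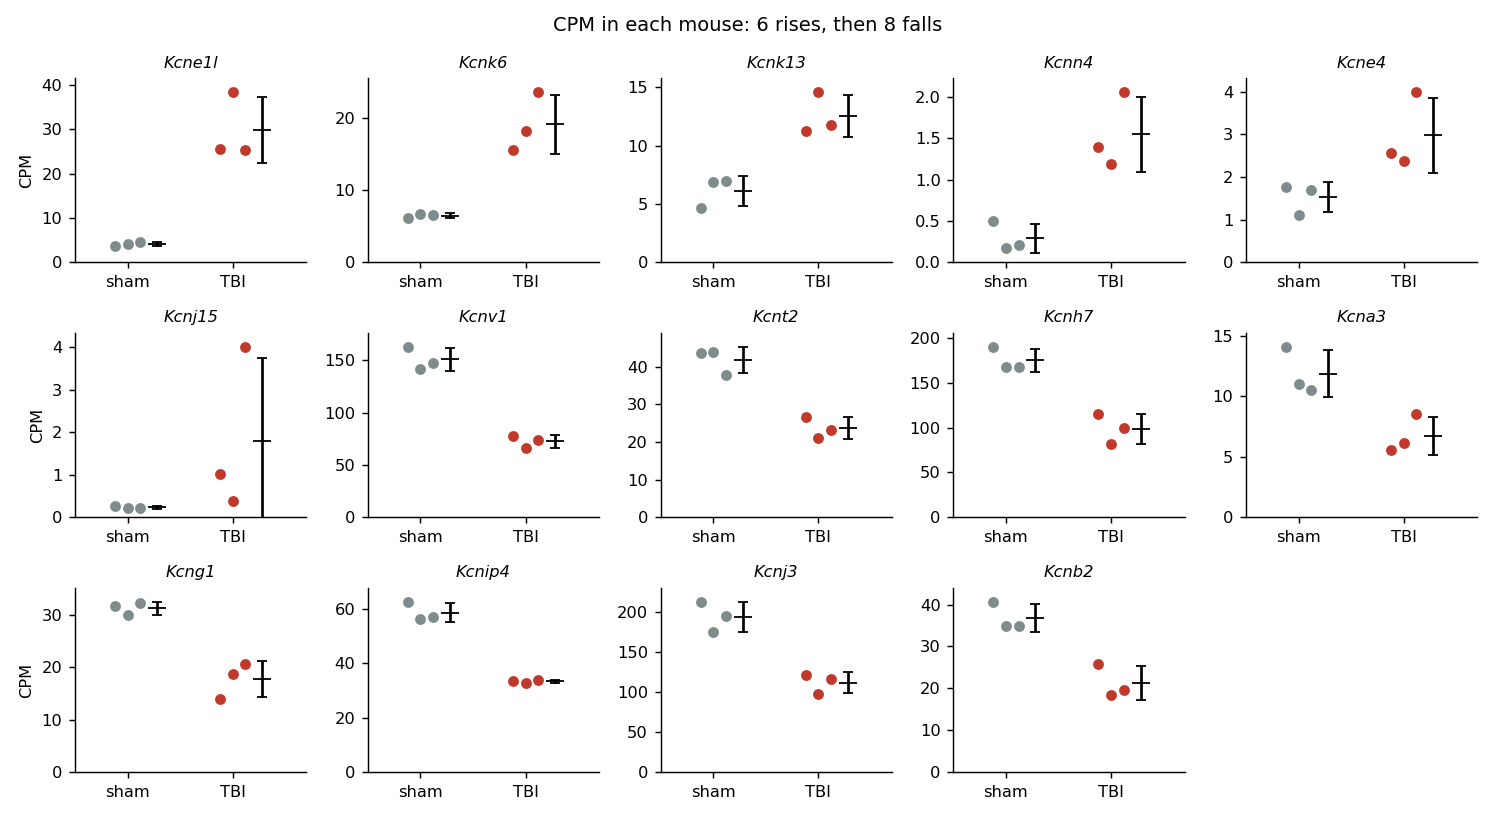
CPM (vertical axes, linear from 0) in each of 3 sham (grey) and 3 TBI (red) mice for the 6 members that rose and the 8 with the largest falls among those whose groups were separate; black bars are mean and SD (n = 3), and the bar of Kcnj15, which would reach below 0, stops at the axis. In each of the 14 panels the groups are separate; Kcnj15 ranges from 0.39 to 4.01 CPM among TBI mice.

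The M-current channels (Kcnq) are slow, low-threshold brakes on firing. Kcnq3 was at 232, 244 and 236 CPM in sham mice and at 177, 174 and 142 CPM in TBI mice (-0.53, SE 0.0939, adjusted p = 0.00355). Kcnq5 was at 120, 87.4 and 134 CPM, then at 80.3, 74.1 and 66.4 CPM (-0.63, SE 0.148, adjusted p = 0.0128). Both fell with separate groups.

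The EAG family (Kcnh) takes in the ether-a-go-go, ERG and ELK channels. Here 5 of 8 members fell and none rose, with a median of -0.43. Kcnh7, an ERG channel of neurons whose promoter is printed above, was at 190, 168 and 167 CPM in sham mice and at 115, 81.6 and 100 CPM in TBI mice (-0.82, SE 0.122, adjusted p = 0.00143). Kcnh3, an ELK channel of the forebrain, was at 134, 155 and 162 CPM, then at 85.8, 91.1 and 104 CPM (-0.68, SE 0.101, adjusted p = 0.00136). No TBI mouse reached the lowest sham mouse for either gene. Kcnh1 (-0.40, adjusted p = 0.00778), Kcnh5 (-0.45, adjusted p = 0.0496; 18.9 CPM on average in TBI mice of 2018 and 74.2 in those of 2022) and Kcnh4 (-1.02, SE 0.313, adjusted p = 0.0398) fell too, Kcnh4 with overlapping groups. Kcnh2, the cardiac ERG gene, which brain also expresses, was not called (-0.14, adjusted p = 0.578).

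The auxiliary subunits were mixed, with 3 falls and 2 rises among 13 and a median of 0.00. Of the 4 Kcnip genes, which encode the calcium-binding KChIP partners of Kcnd channels, 3 fell. Kcnip4 was at 62.6, 56.1 and 56.9 CPM in sham mice and at 33.3, 32.8 and 33.9 CPM in TBI mice, which lay close together (-0.81, SE 0.076, adjusted p = 0.000106). Kcnip3 (-0.37, adjusted p = 0.0325) and Kcnip1 (-0.27, adjusted p = 0.0419) fell less by their fitted values, and Kcnip2 ranged widely in both groups (84.5 to 150 CPM in sham, 99.2 to 179 CPM in TBI mice). None of the 3 beta subunit genes Kcnab1, Kcnab2 and Kcnab3 was called, although Kcnab2 passed without TBI mouse 1 (-0.42, adjusted p = 0.0147 in edgeR).

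All 5 Kcne genes, encoding single-span membrane subunits, had fold changes above 0, and 2 rose. Kcne1l, which lies on chromosome X, was at 3.72, 4.03 and 4.54 CPM in sham mice and at 25.5, 38.4 and 25.4 CPM in TBI mice. Each TBI mouse exceeded each sham mouse several times over, a 7.26-fold rise (log2 fold change 2.86, SE 0.187, adjusted p = 1.71e-05). Kcne4, an inhibitory partner of Kv channels, was at 1.76, 1.12 and 1.69 CPM, then at 2.57, 2.38 and 3.99 CPM (0.97, SE 0.291, adjusted p = 0.0362). That call was lost when any single sham mouse or TBI mouse 3 was left out, with adjusted p up to 0.107 (without sham mouse 2).

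Kcne2, a subunit abundant in choroid plexus, was at 4.75, 0.0431 and 0.38 CPM in sham mice and at 6.73, 6.9 and 5.61 CPM in TBI mice, so sham mouse 1 stood near the TBI mice and the other sham mice far below. The gene was not called (1.90, SE 0.987, adjusted p = 0.188). Kcnj13, an inward rectifier of the same epithelium, was at 2.63, 0.172 and 0.507 CPM, then at 2.31, 1.6 and 2.66 CPM (0.99, SE 0.747, adjusted p = 0.367), and 49.1% of its exonic bases overlap Gigyf2. Ttr, the defining transcript of choroid plexus, was at 1020, 12 and 47.1 CPM in sham mice and at 1160, 1260 and 1060 CPM in TBI mice. The 4 markers of choroid plexus and ependyma summed to 23.3 to 1070 CPM in sham and 1120 to 1350 CPM in TBI mice, 1 of 4 being called higher. That gene was Foxj1, at 10.5, 8.08 and 9.79 CPM, then at 25.7, 45.4 and 17.0 CPM (1.63, adjusted p = 0.00485). Ttr, Folr1 and Kl were not called (adjusted p = 0.336, 0.178 and 0.22). The part of choroid plexus tissue in the levels of both genes was not tested.

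**Figure D4:**
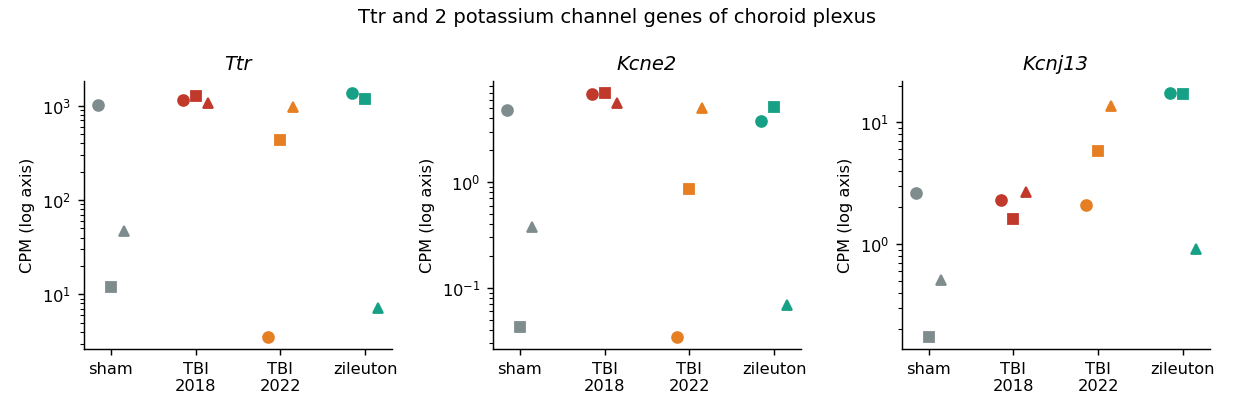
CPM (vertical axes, logarithmic) of Ttr, Kcne2 and Kcnj13 in each library, sham and TBI of 2018 and TBI and zileuton of 2022, normalized separately by batch; symbols (circle, square, triangle) mark replicates 1, 2 and 3 in 2018 and 2, 3 and 6 in 2022. Libraries low in Ttr, such as sham 2 (12 CPM) and zileuton replicate 6 (7.22 CPM), are low in Kcne2 and Kcnj13 as well.

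Among inward rectifiers, 4 of 13 fell and 1 rose, with a median of -0.16. The Kir3 genes Kcnj3, Kcnj6 and Kcnj9 encode channels opened by G proteins downstream of inhibitory receptors, and all 3 fell. Kcnj3 was at 213, 175 and 195 CPM in sham mice and at 122, 97.1 and 116 CPM in TBI mice (-0.80, SE 0.107, adjusted p = 0.000781), with 31.1% of its exonic bases overlapping an antisense gene. Kcnj9 was at 159, 187 and 179 CPM, then at 136, 98.7 and 112 CPM (-0.60, SE 0.119, adjusted p = 0.00614). Kcnj6 was at 25.9, 21.1 and 25.2 CPM, then at 20.7, 14.2 and 14.2 CPM, with TBI mouse 1 just under the lowest sham mouse (-0.55, SE 0.162, adjusted p = 0.0326). The call of Kcnj6 was lost in 3 of the 11 alternatives that kept every mouse and without sham mouse 1, sham mouse 3, TBI mouse 2 or TBI mouse 3. Kcnj5, the remaining member of that subfamily, was near 2 to 3 CPM and was not called (0.03, adjusted p = 0.952).

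Kcnj4, a strong rectifier of forebrain neurons, fell from 144, 126 and 170 CPM to 74.5, 107 and 107 CPM (-0.61, SE 0.156, adjusted p = 0.0183; without sham mouse 3, adjusted p = 0.0717). Kcnj2, its relative of vessels, neurons and microglia, was at 22.6, 20.6 and 25.8 CPM, then at 21.6, 25.6 and 14.6 CPM, with overlap (-0.16, SE 0.187, adjusted p = 0.571). Kcnj8, the pericyte pore of ATP-sensitive channels (0.41, adjusted p = 0.227), and the glial Kcnj16 (0.01, adjusted p = 0.967) were not called. The single rise was Kcnj15, a weakly rectifying relative of the glial inward rectifiers, at 0.27, 0.216 and 0.211 CPM (12, 10 and 10 counts) in sham mice and at 1.01, 0.39 and 4.01 CPM (50, 19 and 175 counts) in TBI mice. The fitted log2 fold change of 2.94 (SE 0.793, adjusted p = 0.0235) came to 1.60 without TBI mouse 3. The call was lost without that mouse and without sham mouse 1, 2 or 3, with an adjusted p of up to 0.0815 in edgeR, and in limma on log2(FPKM + 0.1) and log2(FPKM + 1), with an adjusted p of up to 0.204.

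The tandem-pore leak channels (Kcnk) split by gene, with 4 falls and 2 rises among 11 tested and a median of -0.14, which turned to 0.18 when every gene with at least 1 count was kept. Kcnk9, an acid-sensitive leak channel of neurons, was at 105, 121 and 116 CPM in sham mice and at 78.5, 64.0 and 84.7 CPM in TBI mice (-0.59, SE 0.11, adjusted p = 0.00446). Kcnk4, a mechanosensitive channel of axons, was at 19.9, 23.6 and 21.8 CPM, then at 14.9, 8.99 and 13.9 CPM (-0.79, SE 0.18, adjusted p = 0.0115). Kcnk12 (-0.72, adjusted p = 0.00485) and Kcnk3 (-0.35, adjusted p = 0.0427) fell as well; the mean level of Kcnk12 was 8.78 CPM in the TBI mice of 2018 and 1.29 CPM in those of 2022, which were normalized separately. Kcnk2, known from neurons, astrocytes and endothelium, was at 56.8, 68.6 and 77.7 CPM, then at 43.8, 65.8 and 45.8 CPM, and was not called (-0.39, adjusted p = 0.12; without TBI mouse 2, adjusted p = 0.0146).

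Kcnk6, a leak channel known for potassium efflux from macrophages, was at 6.15, 6.75 and 6.53 CPM in sham mice and at 15.6, 18.2 and 23.6 CPM in TBI mice, a 2.95-fold rise with a wide gap between the groups (1.56, SE 0.162, adjusted p = 0.00019). Kcnk13, a leak channel that sets the potassium efflux of microglia, was at 4.64, 6.85 and 6.93 CPM, then at 11.3, 14.6 and 11.8 CPM (1.03, SE 0.187, adjusted p = 0.00386). Every TBI mouse exceeded every sham mouse for both. Kcnk1, the most abundant leak channel per length, was not called, at 103, 104 and 103 CPM and then at 93.2, 101 and 103 CPM (-0.06, SE 0.0681, adjusted p = 0.578).

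Among the calcium- and sodium-activated channels and their subunits, 4 of 11 fell and 1 rose, with a median of -0.27. Kcnma1, the pore of large-conductance (BK) channels, was at 345, 287 and 290 CPM in sham mice and at 187, 176 and 186 CPM in TBI mice (-0.75, SE 0.0883, adjusted p = 0.00041). The TBI mice were nearly alike and lay well under the sham mice. Its neuronal beta subunit Kcnmb4 was called lower (-0.70, SE 0.221, adjusted p = 0.0442) at 1.83 to 4.03 CPM. An antisense gene overlaps 20.8% of the exonic bases of Kcnmb4, and its mean was 46.0 CPM in the TBI mice of the separately normalized 2022 data. The vascular beta subunit Kcnmb1 was not called (0.44, SE 0.519). Kcnt2, a sodium-activated channel, was at 43.6, 44.0 and 37.7 CPM, then at 26.7, 21.0 and 23.2 CPM (-0.82, SE 0.111, adjusted p = 0.00081), whereas its paralogue Kcnt1 had overlapping groups (-0.27, SE 0.127, adjusted p = 0.15).

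The small-conductance channels (Kcnn) shape the afterhyperpolarisation. Kcnn1 fell (-0.52, SE 0.107, adjusted p = 0.00682), and Kcnn2 and Kcnn3 were not called. Kcnn4, the intermediate-conductance channel of immune and blood cells, was at 0.495, 0.172 and 0.211 CPM (22, 8 and 10 counts) in sham mice and at 1.4, 1.19 and 2.06 CPM (69, 58 and 90 counts) in TBI mice. All TBI mice lay above all sham mice, a 5.27-fold rise from a low level (2.40, SE 0.459, adjusted p = 0.00501).

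The calls were followed across settings. Of the 34 falls, 20 were kept whichever single mouse was left out and 24 in all 11 other alternatives, and Kcnv1, Kcnip4, Kcnma1, Kcnj3, Kcnt2, Kcnh7, Kcnh3, Kcnq3, Kcnb2, Kcnc2 and Kcna2 were among those in both sets. The falls of Kcnh4, Kcnh5, Kcnip1, Kcnip3, Kcnk3, Kcnmb4, Kcnc1, Kcnd3, Kcnj4 and Kcnj6 were in neither set. Of the 6 rises, Kcne1l, Kcnk6, Kcnk13 and Kcnn4 were kept whichever mouse was left out, and Kcne1l, Kcnk6 and Kcnk13 in all 11 other alternatives. Kcnn4 kept its call in the 10 alternatives that tested it and lay under the minimum mean of 0.5 FPKM in the remaining limma fit. With limma on log2(FPKM + 1) instead of counts, 6 members rose and 25 fell, while over all genes 3410 rose and 1546 fell, against 3213 and 2399 in edgeR.

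Genes whose products act with these channels were described by lists, with no test of a list. Over all genes tested, 12.2% were called lower and 16.3% higher. Of 19 tested partners without a Kcn symbol, 10 fell and 1 rose (median -0.33). The Kcnd partners Dpp10 (-0.79, adjusted p = 0.000255) and Dpp6 (-0.30, adjusted p = 0.0225) fell, as did the adhesion protein Amigo1 (-0.37, adjusted p = 0.0174), whereas its relative Amigo2 rose (0.76, adjusted p = 0.00689). Of 8 voltage-gated sodium channel subunits 5 fell (median -0.39), of 8 calcium channel pores 4 fell (median -0.30) and of 4 HCN channels 2 fell, with no rise in these lists. Of 11 potassium pumps and cotransporters 5 fell and 4 rose, among them the neuronal cotransporter Slc12a5 (-0.55, adjusted p = 0.00139) and, in the other direction, Atp1b3 (0.61, adjusted p = 0.000474) and Slc12a7 (1.22, adjusted p = 0.000174).

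Promoter sequence was compared between called members, as a description. Of 92 members, 67 had a RefSeq start in the sequences used, among them 26 that fell and 5 that rose. A GC box on either strand within 250 bases before a start was found for 18 of the 26 and 2 of the 5, beside 35.3% of 26994 genes with a promoter. The PU.1 core was found for 8 of 26 and 2 of 5 (25.9% of genes), the AP-1 motif TGANTCA for 2 of 26 and 0 of 5 (7.82%), the TATA box for 1 of 26 and 0 of 5 (14.3%) and the CRE TGACGTCA for none (1.77%). The 26994 genes were not limited to genes tested after TBI, and members without a call were not counted. A link between a motif and the direction of change was not tested.

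To see whether channel expression differed with 5-lipoxygenase inhibition, zileuton-treated TBI mice were compared with TBI mice of the same batch. None of 81 members was called by edgeR, and none by DESeq2. Over all 17518 genes 0.0% were called by edgeR (28 genes by DESeq2). At an unadjusted p under 0.05 there was 1 member (1.23%), beside 1188 genes (6.78%). That count depended on single mice and on the tool. Without zileuton replicate 2 it was 14 of 81 members (17.3%) beside 11.0% of all genes, and without TBI replicate 3 it was 7 (8.64% beside 8.22%), so that the share of the members passed that of all genes. It was 4 without TBI replicate 2, 3 without TBI replicate 6, 2 in DESeq2 and up to 5 in limma, each a smaller share than that of all genes. The groups were separate for 5 members (6.17%) beside 13.5% of all genes.

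The member under that limit was Kcnj2, at 21.1, 28.6 and 24.0 CPM in TBI mice and at 29.6, 39.3 and 34.1 CPM in zileuton mice. The lowest zileuton mouse lay just above the highest TBI mouse (log2 fold change 0.48, SE 0.143, unadjusted p = 0.00939 and adjusted p = 0.716 in edgeR). Over the alternatives its unadjusted p ranged from 0.00117 to 0.0173 with all mice and reached 0.0404 when a mouse was left out. Groups were separate for 3 members with zileuton above, Kcnj2 and Kcnh8 among them (6.5% of all genes), and for 2 with zileuton below, Kcnj8 and Kcnq1 (6.99% of all genes). Kcnma1 was at 191, 199 and 134 CPM, then at 197, 217 and 238 CPM, the low value of TBI replicate 6 standing apart (0.32, SE 0.149, adjusted p = 0.716 in edgeR).

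The members that had risen after TBI had overlapping groups here. Kcne1l was at 12.1, 17.2 and 19.8 CPM in TBI mice and at 25.2, 15.0 and 11.9 CPM in zileuton mice (0.09, SE 0.281). Kcnk6 was at 12.4, 18.6 and 16.5 CPM, then at 15.8, 13.4 and 12.8 CPM (-0.18, SE 0.162). Kcnk13 was at 8.54, 11.8 and 12.2 CPM, then at 12.1, 11.1 and 10.5 CPM (0.05, SE 0.154). The lowest and highest values of each group crossed for all 3 genes. Kcnn4, at 1.1, 1.51 and 1.89 CPM and then at 1.64, 0.66 and 0.662 CPM, had a wider error (-0.60, SE 0.42), and Kcnj15, at 0.0697 to 0.446 CPM, was not tested. All 8 markers of activated microglia and macrophages had fold changes below 0 (median -0.31) and none was called.

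Fold changes of the members lay mostly above 0, in 58 of 81 (71.6%, median 0.09) beside 50.7% of all genes (median 0.00). The share was 14 of 15 among pore-forming Kv subunits, where Kcnc4 was the exception (-0.12), 7 of 8 in the EAG family and 5 of 10 among auxiliary subunits. This lean depended on single mice: without TBI replicate 6, 41 of 80 members were above 0 (median 0.013), and without zileuton replicate 6, 48 of 81 (median 0.022). Fold change and gene length were related across genes in this comparison (Spearman rho 0.373, and -0.114 for TBI against sham, genes not being independent replicates). The members tested in TBI against sham had a median length of 4460 bases, against 3710 for all genes tested there. With the length trend removed in the zileuton comparison, 51 of 81 members were above 0 (63.0%, median 0.043).

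The 2 comparisons share no mice, so their values were set side by side. Of the 34 members lower after TBI, 26 had a fold change above 0 with zileuton (76.5%), beside 67.2% of the 2325 genes lower after TBI and tested in both, and 21 with the length trend removed. Of the 5 higher after TBI and tested with zileuton, 2 were above 0 and 3 below, beside 37.6% above 0 of 3065 genes. No test was made of these shares.

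**Figure D5:**
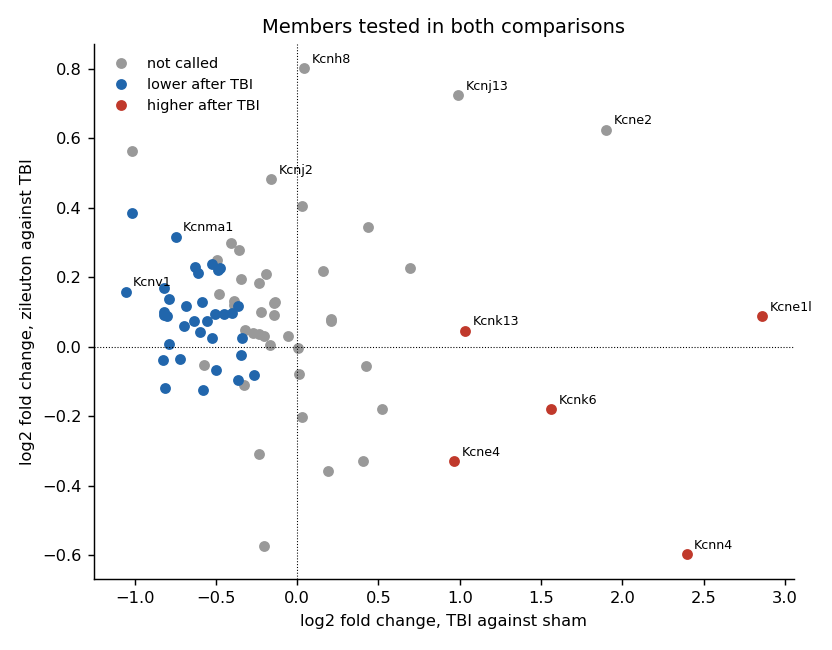
Log2 fold change of zileuton against TBI (vertical axis, batch of 2022) over that of TBI against sham (horizontal axis, batch of 2018), with 1 point per member tested in both; blue and red mark members lower and higher after TBI. The 34 blue points lie between -0.12 and 0.39 on the vertical axis, and none of the members was called in that comparison.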

How the data were processed

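Poly(A) RNA of pericontusional tissue from 12 mice was sequenced as read pairs. For 2018 the authors deposited raw counts per gene and FPKM, and for 2022 the deposited files hold estimated counts, of which 13.0% to 15.2% were not whole, and TPM. The submitters' processing notes name HISAT2, featureCounts, Subread, DESeq2 and GRCm39. The strand setting and the annotation are not given in the sources used here, so genes overlapping an antisense gene are uncertain. Chromosomes and exon overlaps come from GENCODE M21 on GRCm38, another build than that of the authors, and promoters with their positions from RefSeq on GRCm38.p6. Symbols were found for 34808 of 35697 and 52081 of 55637 identifiers.

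Estimated counts were rounded. Genes with 10 or more counts in 3 or more libraries were tested in R 4.3.3 with edgeR 4.0.16 (TMM, glmQLFit, glmQLFTest), each batch apart, with a threshold of 0.05 on the Benjamini-Hochberg adjusted p. CPM are on TMM-scaled library sizes, and the SE is the size of the log2 fold change over the square root of F. Folds printed as such are 2 to the power of the fitted value. The scripts were tested on simulated data. Alternatives were DESeq2 1.42.0 and its size factors, filterByExpr, a filter of 1 count, limma 3.58.1 on log2(FPKM or TPM + 1) and + 0.1 and with a mean of at least 0.5, a length trend removed, a replicate block, each mouse left out and, added after the data were seen, counts divided by 2, since even numbers made up 62.3% to 64.4% of the values between 1 and 20 in 2018.

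Members and lists were chosen with earlier results of these data known. Named were the 8 largest rises and falls among called members with separate groups (6 rises qualified), the member with the highest FPKM of each class, a list of genes with known roles in microglia, glia, vessels and neurons, and members under an unadjusted p of 0.05 with zileuton; further members were named after their values were seen, and a few genes that the rule or lists hold are not reported here. Nothing says whether replicates had separate dissections or library preparations, so p-values measure the spread between these libraries.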

Additional observations from a re-analysis of the deposited data

How the results depend on the processing

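In TBI against sham, 4 to 7 members rose and 23 to 32 fell when single mice were left out. Over all genes tested, 12.5% to 14.6% rose and 7.47% to 10.1% fell in those fits. In the other alternatives 5 to 7 members rose and 25 to 39 fell, beside 9.87% to 19.8% and 6.82% to 14.2% of all genes. Kcnk1 turned to 0.01 in the 3 limma fits, and Kcnj16 to -0.03 with the length trend removed and with the replicate block and length trend removed, neither being called in any of these. When single mice were left out, the lowest and highest log2 fold changes were -0.07 and 0.01 for Kcnk1, -0.32 and 0.05 for Kcnj2, -0.10 and 0.14 for Kcnj16, -0.10 and 0.38 for Kcnn3 and -0.22 and 0.86 for Kcnmb1. Of the fits of the named genes, 20 of the alternatives with every mouse and 24 with a mouse left out ended a call, and 6 and 5 gave a new one. The cause was not tested.

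For zileuton, the count of members at an unadjusted p under 0.05 was 1 in edgeR, 2 in DESeq2, 5 with no filter beyond 1 count, 5 with limma on log2(TPM + 1), 5 on log2(TPM + 0.1), and 4 with a mean TPM of at least 0.5. Leaving out single mice gave 1 to 14, with 4 without TBI replicate 2, 7 without TBI replicate 3, 3 without TBI replicate 6 and 14 without zileuton replicate 2. Over all genes that share was 2.87% to 6.88% in the alternatives with every mouse and 3.87% to 11.0% with a mouse left out. No alternative called a member at the adjusted threshold.

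The deviations of same-numbered mice correlated at -0.025, -0.093 and -0.033 in 2018 and at -0.27, 0.061 and -0.266 in 2022. Differently numbered mice of 2022 correlated at -0.069 to 0.296. With so few mice in a group, these values cannot settle whether mice were handled in pairs. With the replicate block 6 members rose and 28 fell after TBI, beside 13.4% and 9.29% of all genes. In that setting 1 member had an unadjusted p under 0.05 with zileuton (1.23%, beside 4.18% of all genes). Members below about 1 CPM rest on few counts and have standard errors up to 0.997.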

Other observations

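The injured mice of the 2 batches gave unlike levels for some members. The batches were counted and normalized separately and their levels were not tested against each other. Of 81 members with at least 1 CPM in either batch, 9 had mean CPM more than 3-fold apart between the TBI mice of 2018 and those of 2022, while the median ratio was 0.952. The share of all genes so far apart was not counted. Whether these counts are particular to the channel genes therefore cannot be read from them. Kcnmb4, the neuronal beta subunit of BK channels, was at 2.19, 1.83 and 2.47 CPM in 2018 and at 52.8, 45.3 and 39.9 CPM in 2022, and an antisense gene overlaps 20.8% of its exonic bases. Kcnh6, an ERG channel gene, was at 2.74, 2.46 and 3.41 CPM and at 27.5, 39.6 and 30.6 CPM. Kcnh5, an ether-a-go-go channel gene, was at 23.3, 18.5 and 15.0 CPM and at 82.6, 69.6 and 70.4 CPM. In the other direction, Kcnk12, a leak channel gene, was at 9.22, 7.33 and 9.78 CPM and at 1.23, 1.43 and 1.21 CPM, and Kcne1, a partner of the channel Kcnq1, was at 3.81, 3.86 and 3.48 CPM and at 0, 0.0286 and 0 CPM. For these 5 genes every library of a batch lay on the same side of every library of the other. The other 4 were Kcnj15, Kcne2, Kcng2 and Kcnj13.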
